A study of Rattus norvegicus with 8 samples.

Results

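The response of the rat testis 8 h after 1 oral dose of Adjudin was described by setting 2 arrays from treated rats against 3 arrays from untreated rats. All probe sets outside the array's controls were kept whose deposited signal reached 50 on at least 2 of these 5 arrays, which left 18783 of 31042 probe sets and 10817 of 14217 named genes. The animals were adult Sprague-Dawley rats given Adjudin by gavage at 50 mg per kg body weight and killed after 8 h. The control rats were untreated, no vehicle group is named, and the samples were total RNA of whole testis. Another group of 3 arrays, from rats killed 4 d after the same dose, shared the fit and is given beside the 8 h values where it bears on them. Whether the arrays stand for different rats is not stated in the labels, and p-values reflect only the spread between arrays, which may be technical.

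Adjudin is an indazole carbohydrazide, a derivative of lonidamine, known for loosening the adhesion between Sertoli cells and the spermatids they carry, after which immature germ cells are shed. Sertoli cells hold spermatids at the apical ectoplasmic specialization, a testis-specific anchoring junction built on actin, integrins, laminins, nectins and cadherins. In many tissues a stimulus is followed within hours by immediate-early genes, which encode transcription factors of the AP-1 and Egr families and feedback regulators, and by cytokine and chemokine genes, many of them targets of NF-kappaB.

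The arrays had been hybridised in 3 runs, as dated in their settings files. Run 1 held control 1 and 8 h replicate 1, and run 3 held control 3 and 8 h replicate 2. Run 2, with another version of the fluidics protocol, held control 2 and no 8 h array. The settings of the arrays of run 2, control 2 among them, name mouse as the sample type. The array type is the rat array, so this was treated as a typing slip, which was not tested. The 2 arrays of run 3 were dimmer, with 51.7% and 53.2% of probe sets at the minimum against 57.8% to 59.0% on the other 3. Results are therefore given from fits without and with a term for run, and the main genes also by their change inside each run. The tissue label was met by germ cell transcripts: the protamine gene Prm1 had a signal of 16767 to 28324 on the 3 untreated arrays and 18052 to 24984 on the 2 arrays at 8 h, and the Leydig cell hormone gene Insl3 1127 to 1828 and 1475 to 1793.

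At 8 h, 15 probe sets were higher than in untreated testis (0.0799% of those tested) and 0 were lower, at an adjusted p under 0.05 in limma. The 15 stood for 9 named genes (0.0832% of genes) and, besides them, a second probe set each of Il1a and Ctsl and 4 probe sets without a name. Of the 15, 3 reached the minimum on no control, Cxcl1 and Fos among them, and were kept only through the 8 h arrays. Over all probe sets tested, 91 reached it on both 8 h arrays and no control. Another 576 reached it on 2 or 3 controls and no 8 h array. Below the adjusted threshold, 467 probe sets were higher (2.49%) and 258 lower (1.37%) at an unadjusted p under 0.05. With the run as a block, 54 probe sets were higher (0.287%) and 3 lower (0.016%), or 36 genes (0.333%) and 2 genes (0.0185%), and all 15 of the first fit were among the 54. The median log2 change over all genes was -0.01.

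The chemokine gene Cxcl1, whose product draws neutrophils into tissue, had a signal of 17.3, 9.20 and 3.20 on the 3 untreated arrays and of 485.1 and 463.5 on the 2 arrays at 8 h. Cxcl1 was near the bottom of the scale in untreated testis and well above the minimum on both treated arrays, with no overlap. The filter kept Cxcl1 only through those 2 arrays, which fixed the lack of overlap. The rise was 19.4-fold on the log2(signal + 16) scale (log2 4.28, SE 0.43, adjusted p = 0.00598 in limma), with log2 3.91 within run 1 and 4.64 within run 3. Il1a, which encodes the cytokine interleukin-1 alpha, went from signals of 83.7, 79.3 and 48.0 to 557.6 and 555.1, a 6.76-fold rise (log2 2.76, SE 0.22, adjusted p = 0.00256). A second Il1a probe set gave the same direction, from 86.8, 86.5 and 60.2 to 388.9 and 368.2 (log2 2.09, adjusted p = 0.00415). Interleukin-1 alpha is known in the rat testis as a product of the seminiferous epithelium, and it acts on cells through the interleukin-1 receptor. The gene of that receptor, Il1r1, had signals of 98.6, 107.9 and 58.3 in untreated testis and of 149.6 and 91.5 at 8 h, overlapping groups with a log2 difference of 0.39 that did not pass (adjusted p = 1.00).

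Fos, the AP-1 transcription factor gene that is the classic immediate-early gene, had signals of 7.5, 2.5 and 19.3 in untreated testis and of 183.7 and 179.1 at 8 h. Its rise was 7.94-fold (log2 2.99, SE 0.35, adjusted p = 0.0145; log2 3.09 and 2.47 in run 1 and run 3). Egr1, a zinc finger transcription factor gene induced by growth factors and stress, went from 65.1, 67.1 and 106.3 to 558.5 and 699.5, a 6.84-fold rise (log2 2.77, SE 0.23, adjusted p = 0.00256). Both genes lay above all controls on both treated arrays. The filter had fixed this for Fos, which reached the minimum on the 8 h arrays only. Ier3, an early gene that modulates cell survival, had signals of 77.4, 55.9 and 87.4 against 652.8 and 683.2, and rose 7.72-fold (log2 2.95, SE 0.24, adjusted p = 0.00256). Ppp1r15a encodes GADD34, the subunit that directs a phosphatase to the initiation factor eIF2-alpha and so ends a stress-induced block of translation. It went from 92.7, 111.2 and 90.6 to 295.9 and 365.9 (3.03-fold, log2 1.60, SE 0.20, adjusted p = 0.0187).

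The other 3 rises were of genes that none of the early response lists held. Rab20, a small GTPase of endocytic vesicles, went from 165.3, 151.5 and 173.7 to 513.0 and 564.2 (3.09-fold, log2 1.63, SE 0.15, adjusted p = 0.00333). Dipk2a, a gene of the divergent protein kinase family, went from 167.9, 130.8 and 112.7 to 489.8 and 609.0 (3.71-fold, log2 1.89, SE 0.21, adjusted p = 0.0112). Itga6 encodes integrin alpha 6, a laminin receptor subunit that pairs with integrin beta 1 at the apical ectoplasmic specialization. Itga6 went from 125.5, 121.1 and 109.1 to 351.3 and 384.5 (2.85-fold, log2 1.51, SE 0.19, adjusted p = 0.0203). Within run 1 the log2 rises of the 9 genes ran from 1.38 (Itga6) to 3.91 (Cxcl1), and within run 3 from 1.61 (Rab20) to 4.64 (Cxcl1). With the run as a block all 9 passed, with log2 rises from 1.45 (Itga6) to 4.06 (Cxcl1). In all 9 genes both treated arrays lay above all 3 controls, as they did in 850 genes in all (7.86%). For Cxcl1 and Fos the filter had fixed this.

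**Figure D1:**
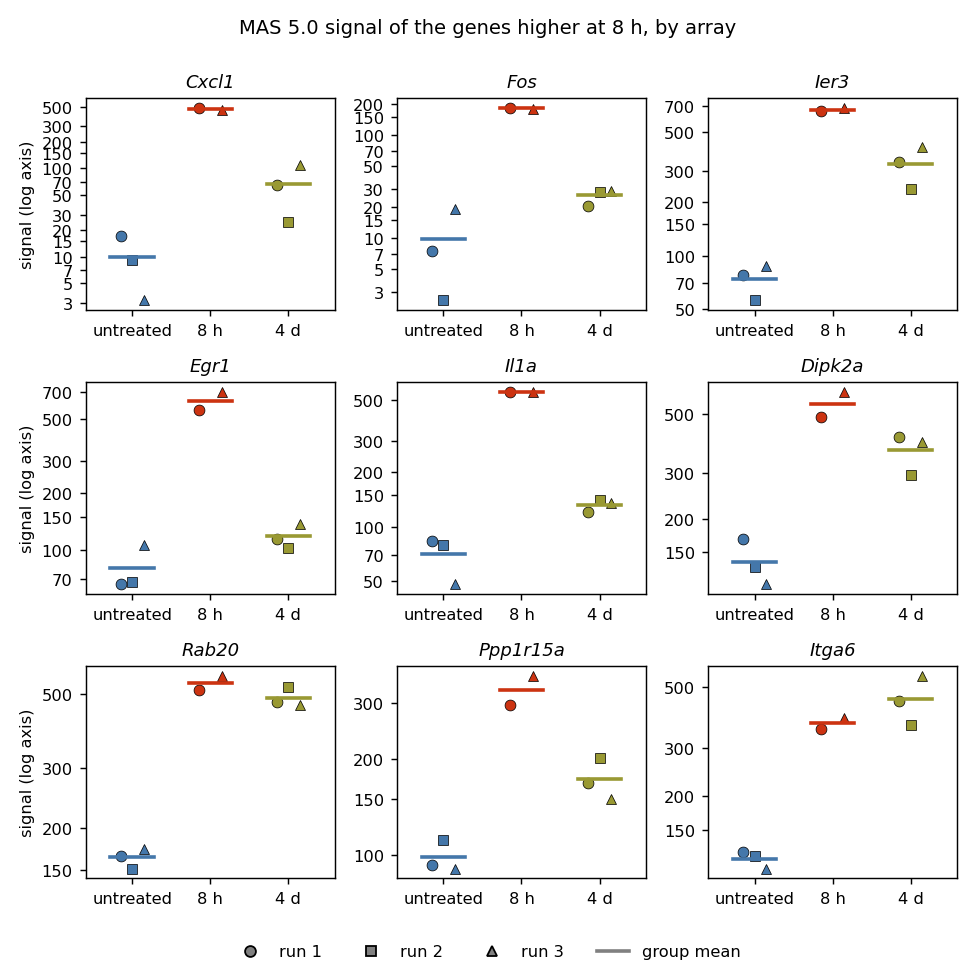
Deposited MAS 5.0 signal (vertical log axis, arbitrary units) of the 9 genes past the threshold, in untreated testis and 8 h and 4 d after Adjudin. Each symbol is 1 array, its shape gives the run and the bar is the group mean; in every panel both 8 h symbols lie above the 3 untreated symbols.

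For 3 of these genes other probe sets did not pass without a block. The other probe set of Dipk2a differed by log2 -0.28, those of Rab20 by 1.24 and -0.44, and those of Itga6 by -0.05, 0.49 and 1.06. The Rab20 probe set at 1.24 passed as well once run was a block (adjusted p = 0.0136). Ctsl, the gene of the protease cathepsin L, showed the reverse arrangement. Its dimmer probe set went from 348.3, 381.5 and 382.7 to 805.2 and 952.3 and passed (log2 1.21, adjusted p = 0.0112), while its brighter probe set went from 1939.6, 1910.7 and 2406.4 to 2592.3 and 3616.7 and passed only with the run as a block (log2 0.51, adjusted p = 0.0313). Ctsl is named here after its values were seen.

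Of the 9 genes, 6 had a promoter in the RefSeq table of assembly GRCr8 (Fos, Ier3 and Itga6 had no entry there). Windows of 300 bases, from 250 before the start site to 50 after it, were searched on both strands for the cyclic AMP response element TGACGTCA, the AP-1 element TGANTCA, the TATA element TATAAA, the Egr element GCGTGGGCG, the NF-kappaB element and the CArG box bound by serum response factor. The 3 promoters below are shown because the cytokine genes Cxcl1 and Il1a and the stress gene Ppp1r15a were among the 9 genes that rose and hold matches to these elements. Each runs 5′ to 3′ from 250 bases before the start site to 10 after it, on the minus strand, and capitals mark the matches. They lie at chr14:17479312-17479571 (Cxcl1), chr3:136990008-136990267 (Il1a) and chr1:105139587-105139846 (Ppp1r15a).
Cxcl1: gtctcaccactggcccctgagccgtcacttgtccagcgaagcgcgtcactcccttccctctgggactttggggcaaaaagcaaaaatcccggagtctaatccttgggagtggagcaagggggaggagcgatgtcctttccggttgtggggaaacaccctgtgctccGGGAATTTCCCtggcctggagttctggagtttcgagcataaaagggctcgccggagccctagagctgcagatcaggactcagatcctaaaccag
Il1a: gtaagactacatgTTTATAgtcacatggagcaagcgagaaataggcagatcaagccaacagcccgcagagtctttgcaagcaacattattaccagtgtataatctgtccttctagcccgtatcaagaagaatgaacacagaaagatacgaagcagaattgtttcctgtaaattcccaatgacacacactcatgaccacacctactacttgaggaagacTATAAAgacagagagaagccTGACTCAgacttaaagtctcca
Ppp1r15a: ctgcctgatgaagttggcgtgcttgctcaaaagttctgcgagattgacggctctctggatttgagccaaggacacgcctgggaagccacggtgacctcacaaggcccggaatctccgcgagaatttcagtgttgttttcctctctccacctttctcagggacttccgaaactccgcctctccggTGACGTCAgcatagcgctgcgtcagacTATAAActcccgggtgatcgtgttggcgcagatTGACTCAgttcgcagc

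The capitals of Cxcl1 are a pair of overlapping NF-kappaB matches that start 84 and 83 bases before the start site. Those of Il1a are TATA matches at 237 and 32 bases before the start and an AP-1 match at 12 bases before it. Those of Ppp1r15a are a cyclic AMP response element at 66, a TATA match at 39 and an AP-1 match at 6 bases before the start. The promoter of Egr1 held 2 CArG boxes, at 105 and 83 bases before the start, and those of Dipk2a and Rab20 held 0 matches to the 6 elements. Over all 33469 promoters of the table the shares with a match were 1.83% for the cyclic AMP element, 7.33% for AP-1, 7.51% for NF-kappaB, 1.64% for the CArG box, 0.544% for Egr and 14.2% for TATA. Over the 9063 promoters of tested genes they were 3.34%, 4.83%, 9.58%, 1.36%, 1.14% and 6.84%. A match describes the letters of the window and shows no binding.

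The fit with the run as a block adjusts for run over all 8 arrays, control 2 and the 4 d arrays included. Its values are therefore not the within-run differences. With this block, 27 more genes were higher. The largest of them were the chemokine gene Ccl2, which attracts monocytes (signals of 11, 24.8 and 19.3 untreated, 116.9 and 152.9 at 8 h; log2 2.08 with the block, adjusted p = 0.0289), and the copine gene Cpne8 (145.6, 526.1 and 150.9; 507.7 and 974.9; 1.95, adjusted p = 0.0313). Ccl2 reached the minimum on the 8 h arrays only, so its lack of overlap was fixed by the filter. Cpne8 was higher in control 2 than in 8 h replicate 1. A second Cpne8 probe set differed by 0.50 with the block and passed in neither fit. Nfkb2, an NF-kappaB subunit gene, went from 13.6, 6.30 and 3.70 to 75.9 and 65.0 (log2 1.88 with the block, adjusted p = 0.0345). Zfp36, whose product speeds the decay of cytokine messenger RNAs, went from 117.4, 180.3 and 76.4 to 307.7 and 381.1 (1.64, adjusted p = 0.0196). Dusp5, a nuclear phosphatase of ERK kinases, went from 113.0, 120.9 and 59.9 to 347.2 and 213.5 (1.48, adjusted p = 0.0156). The adhesion molecule gene Icam1 went from 26.5, 45.0 and 59.8 to 122.9 and 181.3 (1.45, adjusted p = 0.0302). Both treated arrays of Icam1 were above all controls, as in 7.86% of all genes.

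Hpx encodes hemopexin, a haem-binding plasma protein. Its signals were 61.9, 48.2 and 89.7 untreated and 193.7 and 305.0 at 8 h (log2 1.55 with the block, adjusted p = 0.00117), and on the 3 arrays at 4 d they were 2682, 2673 and 4064. Plat, the gene of tissue-type plasminogen activator, a protease made by Sertoli cells, went from 56.8, 76.1 and 62.7 to 166.1 and 175.7 (log2 1.31 with the block, adjusted p = 0.0135). The chemokine gene Cx3cl1 (log2 1.38, adjusted p = 0.0341) and the potassium channel gene Kcnk6 (1.30, adjusted p = 0.0313) completed the 10 largest. A second Kcnk6 probe set differed by 0.47 with the block and passed in neither fit. Without a block none of these 10 genes passed (adjusted p from 0.0941 to 0.870), so their calls rest on the term for run.

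**Figure D2:**
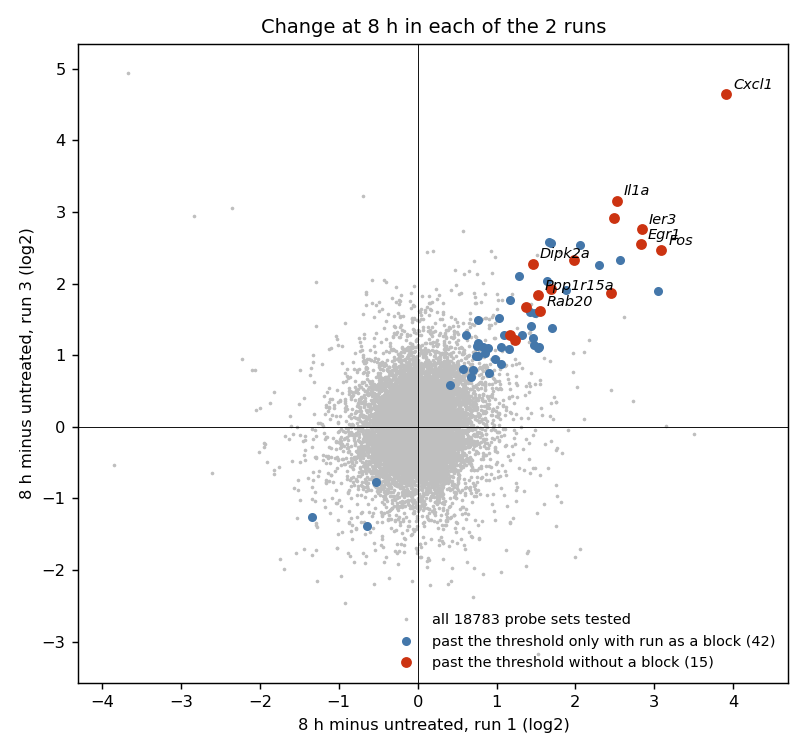
Log2 difference between the 8 h array and the control array hybridised in the same run, run 1 on the horizontal and run 3 on the vertical axis, 1 point for each of 18783 probe sets. The 15 probe sets past the threshold without a block (red) are above 0 in both runs, and of the 42 past it only with the block (blue) 39 are above 0 and 3 below 0 in both runs.

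Among the lists of genes described, the cytokine and chemokine genes stood highest. Of 24 listed genes, 12 reached the minimum. Of these, 2 rose, Cxcl1 and Il1a, 0 fell and 10 did not pass, and 5 passed with the block (Ccl2, Cx3cl1 and Cxcl10 besides). Over all genes 0.0832% were higher without and 0.333% with the block, the shares that stand beside the counts of the later lists too. Cxcl1, Ccl2 and Ccl20 reached the minimum on the 8 h arrays only, so the filter kept them because they were high there. The counts and the median of this list lean upward for that reason. The median log2 difference of the list was 0.77, with 0.75 in run 1 and 0.73 in run 3, beside -0.01 over all genes. In 6 of the 12 both treated arrays were above all controls and in 3 below, beside 7.86% and 7.56% of all genes. Cxcl10, a chemokine gene known as interferon-induced, went from 61.3, 55.6 and 64.3 to 198.9 and 161.1 (log2 1.35, adjusted p = 0.0941, or 0.0289 with the block). Ccl20, a chemokine gene for lymphocytes and dendritic cells, had 15.2, 7.5 and 6.4 against 55.5 and 65.3 (1.58, adjusted p = 0.357). The other 6 lay nearer to 0: Il18 differed by 0.09, Il11 by 0.19, Csf1 by -0.10, Cxcl12 by -0.25, Ccl5 by -0.26 and Cxcl16 by -0.44. The 12 genes under the minimum included Il1b, Il6 and Tnf.

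The 9 measured cytokine receptor genes had a median of 0.37, and 0 passed without the block. Tnfrsf1a, the main receptor of tumour necrosis factor, went from 95.4, 114.5 and 132.8 to 215.1 and 256.7 (log2 0.96, adjusted p = 0.181, or 0.0210 with the block). Tnfrsf12a, the receptor of the cytokine TWEAK, had 55.3, 33.2 and 27.0 against 104.2 and 172.4 (1.50, adjusted p = 0.166), and Il6r, the interleukin-6 receptor, 33.7, 27.0 and 4.40 against 70.7 and 52.2 (1.13, adjusted p = 1.00). Neither of these overlapped with the controls, which the filter had fixed for Il6r, at the minimum on no control. Of 15 NF-kappaB subunit, inhibitor and target genes 0 passed without the block and 2 with it, Nfkb2 and Icam1. The list median was 0.34. Nfkbiz, a nuclear regulator of NF-kappaB targets, had signals of 37.2, 7 and 19.1 against 91.3 and 110.8 (log2 1.74, adjusted p = 0.278), while Rela, the main activating subunit, differed by 0.11. In 9 of these 15 genes both treated arrays were above all controls and in 0 below, beside 7.86% and 7.56% of all genes. Nfkb2 and Nfkbiz reached the minimum on the 8 h arrays only, so the filter had fixed their place above the controls.

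Of 21 early transcription factor genes, Fos and Egr1 rose, 0 fell and 19 did not pass, and Jun passed with the block. The median was 0.53. Jun, a partner of Fos in AP-1, went from 157.2, 143.5 and 117.5 to 297.1 and 255.5 (log2 0.92, adjusted p = 0.246, or 0.0341 with the block). Its other probe sets differed by 0.47 and 0.31 and passed in neither fit. The related genes Junb and Jund differed by 0.83 and 0.47. The same list held genes at or below the controls, such as Nr4a2 (-0.67), Egr3 (-0.61) and Klf4 (-0.02). In 10 of the 21 both treated arrays were above all controls and in 0 below, beside 7.86% and 7.56% of all genes. The filter had fixed this for Fos, for example, which reached the minimum on no control. Of 26 early feedback genes, Ier3 and Ppp1r15a rose, 0 fell and 24 did not pass, and Zfp36, Dusp5 and Rgs2 passed with the block. The median of the feedback list was 0.46. Beside the counts of both lists, 0.0832% of all genes were higher without and 0.333% with the block. Gadd45b, a stress sensor gene, had 36.9, 32.4 and 32.0 against 85.3 and 123.5 (log2 1.26, adjusted p = 0.212). It too reached the minimum on no control.

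**Figure D3:**
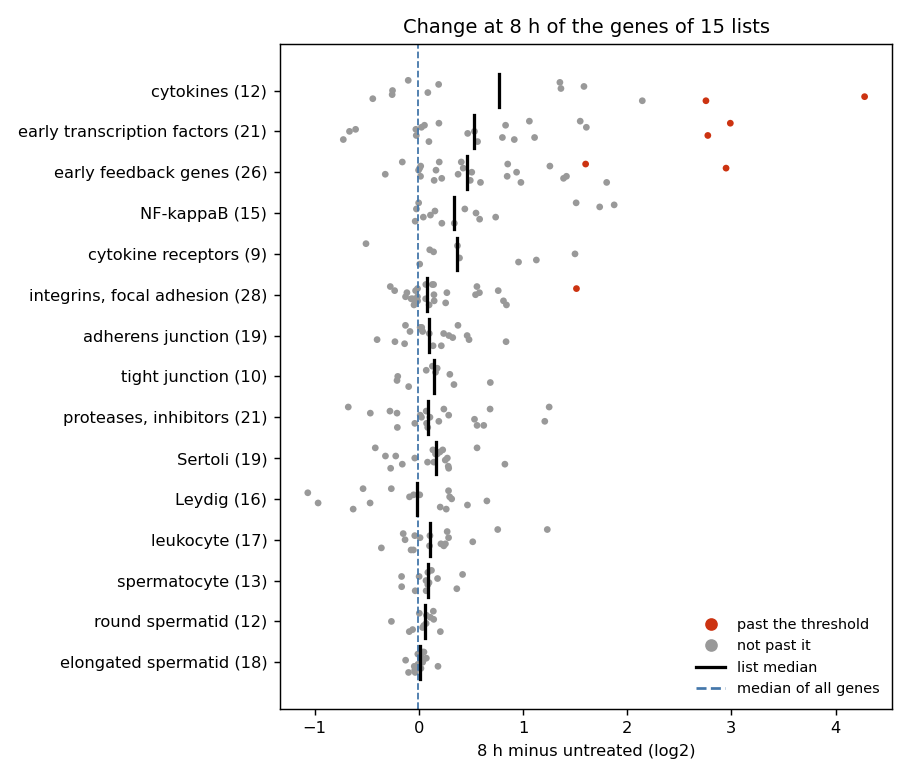
Log2 difference between 8 h and untreated testis (horizontal axis) for every measured gene of 15 lists, 1 point per gene, with the number of genes in brackets. Black bars are list medians and the dashed line is the median of all 10817 genes at -0.01; red points passed the threshold, and the 3 germ cell lists at the bottom lie within a log2 of 0.42 either side of 0.

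Among the genes of cell junctions, 1 passed. Of 28 integrin, laminin and focal adhesion genes Itga6 rose, 0 fell and 27 did not pass, and the median was 0.08. Vinculin, Vcl, which links integrins and cadherins to actin, had signals of 691.2, 721.9 and 702.1 against 1055 and 1071 (log2 0.58, adjusted p = 0.357). Itgb1, the beta partner of integrin alpha 6, had 275.6, 380.8 and 416.6 against 562.3 and 659.4 (0.76, adjusted p = 0.439). Both genes had the 2 treated arrays above all 3 controls, as had 7.86% of all genes, and did not pass. The 19 adherens and ectoplasmic specialization genes (median 0.10) and the 10 tight junction genes (0.15) held 0 genes past the threshold, with or without the block. The members of smallest p were Pvr, a nectin-like adhesion receptor (0.84, adjusted p = 0.430), and Jam3, a junctional adhesion molecule of spermatids and Sertoli cells (0.69, adjusted p = 1.00). Nectin2 differed by 0.38, and Cldn5, a tight junction claudin, by -0.21.

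Among 21 proteases and inhibitors (median 0.09) 0 passed without the block and Plat and Ctsl with it. Adamts1, a secreted metalloprotease, had 39.0, 38.1 and 18.2 against 83.6 and 107.9 (log2 1.25, adjusted p = 0.405), and Timp3, an inhibitor of metalloproteases, 381.3, 378.2 and 437.9 against 543.3 and 711.7 (0.62, adjusted p = 0.925). Of 19 Sertoli cell genes (median 0.16) 0 passed without the block and Ctsl with it. Testin, a protein that Sertoli cells secrete when their contacts with germ cells are disturbed, had signals of 53.7, 32.9 and 33.6 untreated and 74.9 and 89.7 at 8 h (log2 0.83, adjusted p = 0.447), and of 1711, 2039 and 2292 at 4 d.

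Genes of meiotic and later germ cells were close to their untreated level at 8 h. Of 6 spermatogonium, 13 spermatocyte, 12 round spermatid and 18 elongating and elongated spermatid genes, 0 passed in limma, with or without the block. The list medians were 0.00, 0.09, 0.06 and 0.02. The widest difference was that of Sohlh1, a transcription factor gene of spermatogonia, with dim and scattered signals of 55.0, 81.0 and 49.7 against 10.5 and 44.3 (log2 -0.94, adjusted p = 1.00). The actin-bundling gene Fscn3 of elongated spermatids had signals of 2597, 2935 and 3751 untreated and of 2518 and 3112 at 8 h, overlapping groups, and of 988.2, 1151 and 1482 at 4 d. Crem, the transcription factor of round spermatids, had 2034, 1999 and 2383 against 2166 and 2561. Sycp2, a protein of the synaptonemal complex in spermatocytes, had 1714, 1216 and 1081 against 1689 and 1833 (log2 0.42, adjusted p = 1.00), the largest difference in the meiotic and later lists.

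No gene fell past the threshold without a block. Among genes given by their brightest probe set, the lower values of smallest p included genes of the steroid-producing Leydig cells. Cyp11a1, which encodes the side-chain cleavage enzyme that starts steroid synthesis, had signals of 878.3, 893.0 and 1102.2 untreated and of 557.0 and 412.6 at 8 h. The groups did not overlap, and the log2 difference was -0.97 (SE 0.22, adjusted p = 0.357), or -1.06 with the block (SE 0.18, adjusted p = 0.0488), with -0.64 in run 1 and -1.38 in run 3. Lhcgr, the receptor of luteinizing hormone, had 347.0, 436.2 and 464.2 against 204.4 and 174.2 (log2 -1.07, SE 0.25, adjusted p = 0.383, or 0.0908 with the block). In whole tissue, fewer cells of a type and less RNA per cell cannot be told apart. The list of 16 Leydig cell genes did not move as a body: its median was -0.02, 1 member fell with the block and 0 rose, and both treated arrays were below all controls in 4 members and above them in 2 (7.56% and 7.86% of all genes). The summed signal of the 16 was 10585 to 14211 in untreated testis and 11106 and 13794 at 8 h.

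**Figure D4:**
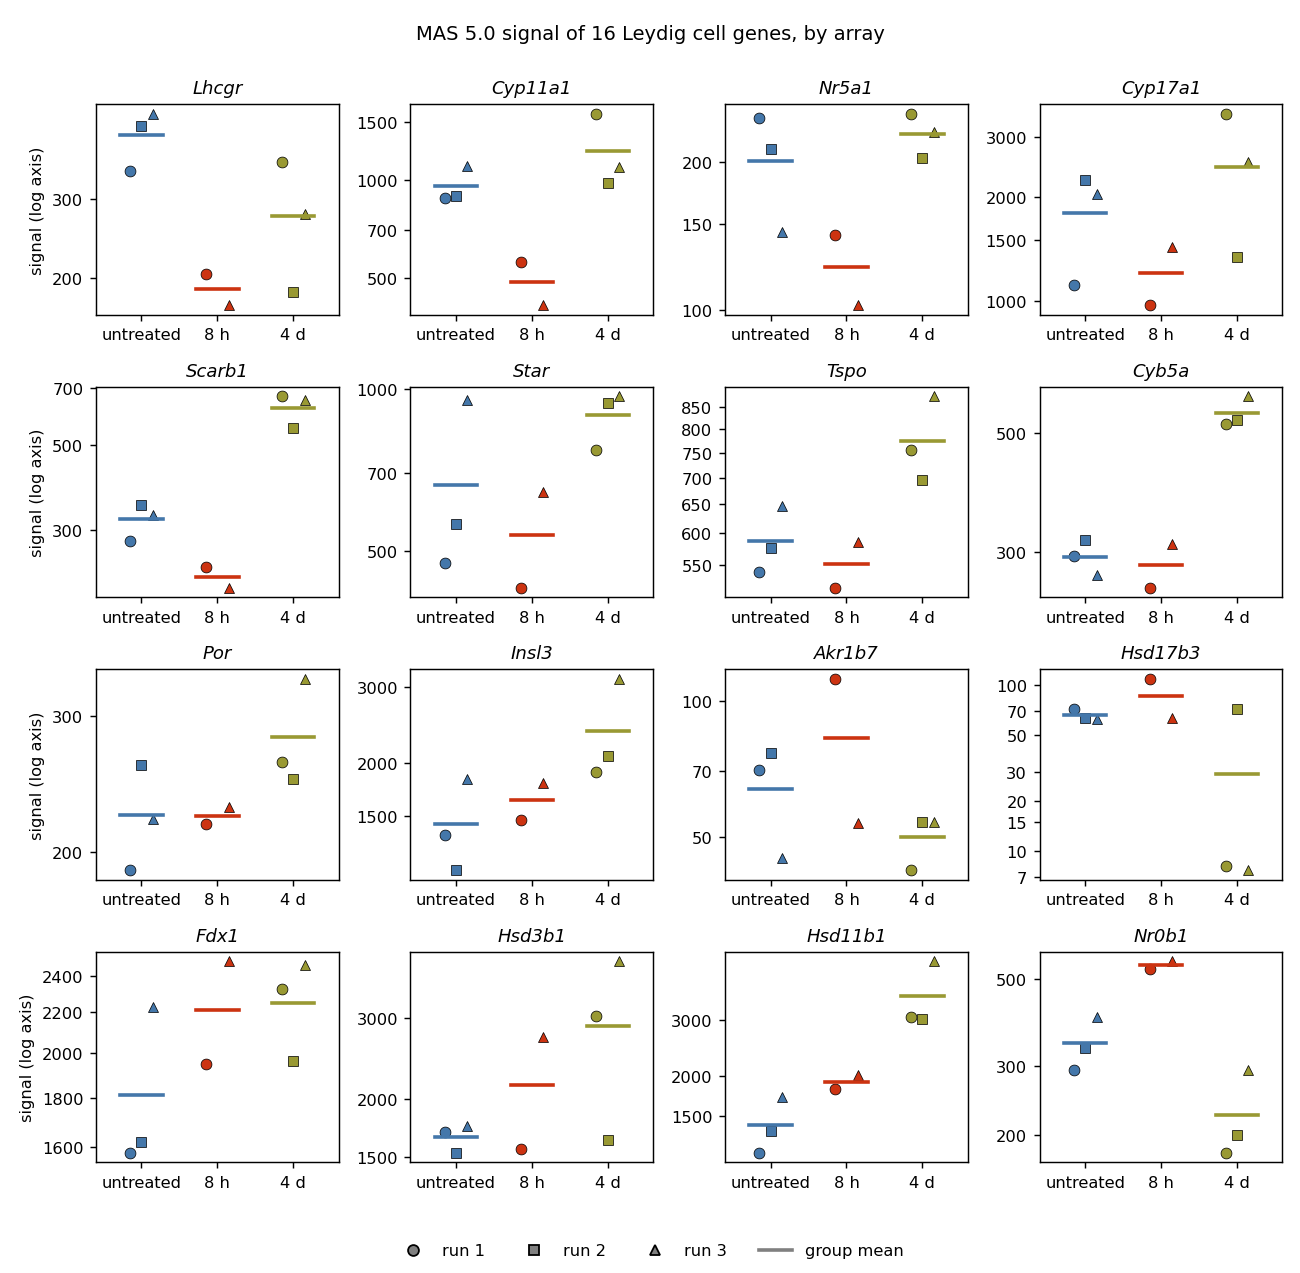
Deposited MAS 5.0 signal (vertical log axis, arbitrary units) of the 16 measured Leydig cell genes, ordered by their log2 difference at 8 h. Each symbol is 1 array, its shape gives the run and the bar is the group mean; both 8 h symbols lie below all untreated ones for Lhcgr, Cyp11a1, Nr5a1 and Scarb1 and above them for Hsd11b1 and Nr0b1.

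The 4 lower members were Lhcgr, Cyp11a1, the nuclear receptor gene Nr5a1 (245.9, 212.1 and 143.9 against 142.4 and 102.6; log2 -0.63) and Scarb1, a receptor that takes up cholesterol from lipoproteins (281.4, 349.0 and 328.8 against 240.0 and 212.5; -0.47). Nr5a1 codes for the activator SF-1 and Nr0b1 for DAX-1, which represses it. Nr0b1 was 1 of the 2 higher members, with 292.2, 333.9 and 400.3 against 531.7 and 554.3 (log2 0.65, adjusted p = 0.920). The other was Hsd11b1 (0.47), an enzyme that interconverts glucocorticoids. Star, which carries cholesterol into mitochondria, had 476.5, 561.0 and 951.5 against 428.8 and 643.0 (-0.26) with overlap, and Insl3 differed by 0.21. Apart from Cyp11a1 with the block, none of the 16 passed in either fit. Of 16 cholesterol synthesis genes (median 0.00), 0 passed; Dhcr7, a late enzyme of the pathway, had the smallest p (log2 -0.56, adjusted p = 1.00).

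The second gene that fell with the block was Fabp3, a fatty acid binding protein gene, with signals of 2118, 1943 and 3516 untreated and of 1461 and 2056 at 8 h (log2 -0.64 with the block, adjusted p = 0.0228). Its groups overlapped, and each treated array lay below the control of its own run. Rgs4, which shortens signalling of G protein-coupled receptors, had the smallest p among lower values: 50.3, 69.0 and 87.7 against 10.1 and 13.9 (log2 -1.58, SE 0.28, adjusted p = 0.14, or 0.0584 with the block). Among genes given by their brightest probe set, the remaining values of smallest p were those of Ccdc126 and Polr3e, a subunit of RNA polymerase III. Ccdc126 had 171.9, 129.4 and 135.3 against 67.7 and 73.1 (-0.89, adjusted p = 0.361). Polr3e had 191.0, 246.2 and 196.0 against 123.6 and 113.1 (-0.75, adjusted p = 0.415). In Rgs4, Ccdc126 and Polr3e both treated arrays lay below all controls, as in 818 genes (7.56%). Rgs4 reached the minimum on the controls only, so the filter kept it because it was high there. Its lack of overlap therefore adds no support. Some probe sets that were unnamed or not the brightest of their gene had smaller p than Ccdc126, such as those of Homer3 (-1.15) and Icam5 (-1.43). An unnamed one that passed with the block had 115.8, 95.7 and 94.2 against 36.2 and 30 (log2 -1.33 with the block). The probe sets given here for Homer3 and Icam5 and the unnamed one also reached the minimum on the controls only.

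Markers of blood and other cells were set beside the cytokine rises. The summed signal of 25 leukocyte genes was 5708 to 6807 in untreated testis and 6646 and 6730 at 8 h, overlapping values. Aif1, a calcium-binding protein gene listed with the macrophage genes, made up much of that sum (3766, 3275 and 3216 against 3103 and 3550). At 4 d Aif1 was below untreated testis (log2 -0.47), while the median of the measured leukocyte genes was 0.99. Without Aif1 both treated arrays were above all controls, with 2491 to 3040 untreated and 3095 and 3628 at 8 h. Leaving out also RT1-Bb, a class II histocompatibility gene that varied widely (881.3, 707.4 and 86.9 against 1315 and 667.1), the sums overlapped again, at 2159 to 2404 and at 2312 and 2428. Both omissions were chosen after seeing the data. Of 17 measured members 0 passed, 11 had a log2 difference above 0 and 6 below, and the median was 0.11. The neutrophil genes S100a8 and S100a9 and the pan-leukocyte gene Ptprc were under the minimum on all 5 arrays. The macrophage gene Cd163 had 52.3, 37.4 and 42.2 against 63.1 and 46.7, and Csf1r, the receptor of the macrophage growth factor, 127.5, 122.9 and 128.9 against 96.9 and 93.1 (log2 -0.36, adjusted p = 1.00). Laptm5, a lysosomal protein gene of leukocytes, had 55.6, 49.1 and 26.9 against 58.3 and 78.3 (0.52), and the complement gene C1qb 14.5, 35.5 and 108.3 against 41.4 and 151.5 (0.76), both with an adjusted p of 1.00. The highest member was RT1-Bb (1.23) and the lowest Csf1r. The part of these cells in the cytokine values was not tested. The 3 red cell genes (median 0.01), 9 endothelial genes (-0.02), 12 peritubular genes (0.05) and the single measured epididymis and fat gene (Cfd, 0.29) held 0 genes past the threshold. Among 13 interferon-induced genes (median -0.13) 0 passed; Irf1 had 74.2, 85.4 and 68.9 against 128.2 and 186.0 (log2 0.89, adjusted p = 0.357).

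The 8 h and 4 d comparisons share their 3 control arrays, so their values are set side by side only. Between the 4 d and 8 h arrays themselves, 844 genes differed (7.8% of genes, adjusted p under 0.05 in limma). Fos had signals of 20.7, 28.4 and 28.9 at 4 d (log2 0.75 against control, adjusted p = 0.189), and Egr1 of 114.0, 101.7 and 137.5 (0.50, adjusted p = 0.187). Neither passed at 4 d, where Fos lay just above the controls and Egr1 overlapped them. Il1a at 4 d had 120.5, 140.0 and 135.5 (log2 0.80, adjusted p = 0.0308), and Cxcl1 65.5, 24.9 and 109.6 (1.57, adjusted p = 0.0323), above the controls and below both 8 h arrays. Ier3 had 337.8, 237.7 and 411.2 (1.93), Dipk2a 411.3, 295.0 and 393.0 (1.32), Ppp1r15a 168.1, 202.4 and 150.4 (0.73). Rab20 and Itga6 were about as high at 4 d as at 8 h, with 473.9, 521.5 and 463.5 (log2 1.49) and 444.0, 363.8 and 546.3 (1.78).

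**Figure D5:**
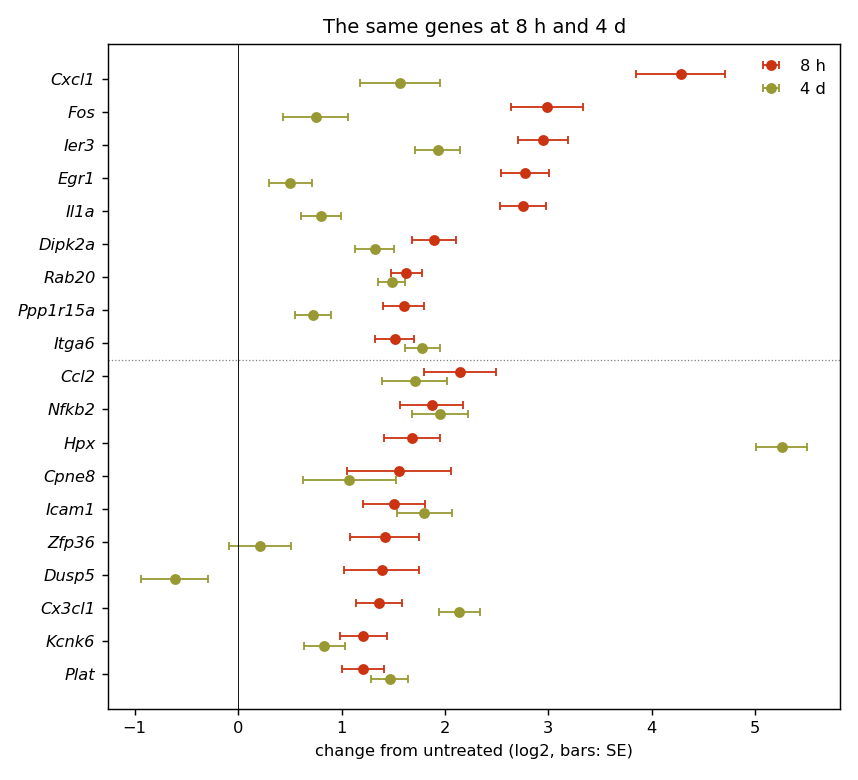
Log2 change from untreated testis (horizontal axis, bars: SE of the fit without a block) at 8 h and 4 d for the 9 genes past the threshold at 8 h (above the dotted line) and the 10 largest rises past it only with the run as a block (below). Fos lies at 2.99 at 8 h and 0.75 at 4 d, Hpx at 1.68 and 5.26, and both sets of changes use the same controls.

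The size of the dim rises depends on the constant added before the logarithm: with 4 or 64 in place of 16, the log2 change of Cxcl1 was 5.24 or 2.87 and that of Fos 3.95 or 1.74, and Fos did not pass with 4 (adjusted p = 0.0867). Leaving out either 8 h array left 0 probe sets past the threshold in limma, and leaving out control 1, 2 or 3 left 9, 8 or 11. In those fits the lone 8 h array is assumed to vary like the other groups.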

How the data were processed

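Total RNA of whole testis was hybridised to Affymetrix one-colour oligonucleotide arrays, 1 per sample. The deposited values are MAS 5.0 signal intensities on a linear scale, per the submitters' processing notes, which also name GeneSpring 7.2. The 2% trimmed mean was 250.1 on every array, so no further scaling was done. Groups come from the sample titles, since another label names normal testis for all 8 samples. Detection calls were not used here. Of 31042 probe sets, 20826 had 1 gene symbol, 436 several and 9780 none; 20758 matched the RefSeq gene table and 0 symbols changed. Each gene is given by its brightest probe set (mean log2 signal over the 5 arrays).

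All 8 arrays were fitted in limma 3.58.1 (R 4.3.3; lmFit, eBayes with a trend) on log2(signal + 16), and p-values were adjusted by Benjamini-Hochberg over 18783 probe sets at 0.05. The fit was also run on simulated arrays with independent noise and no run effect. That simulation cannot bear on the choice between fits with and without the block, and its outcome is not reported here. Replicate numbers are shared between groups, but 8 h replicate 2 was hybridised with control 3. The pairing by run comes from the hybridisation dates. Deviations from the group means correlated between arrays sharing a run (r = 0.356 to 0.523) and ranged from -0.5 to 0.253 otherwise; with 2 arrays at 8 h their deviations are exact opposites, so these r are not independent. The genes and the 34 lists were chosen with earlier results of these data known. Named were all genes past the threshold, the 5 lower values of smallest p, up to 3 members of each list by smallest p, and the 10 rises and falls of greatest size past the threshold only with the run as a block; others named were chosen after their values were seen. The number of arrays limits the precision. Alternatives were other constants, filters, scalings and blocks, the 5 arrays alone, and each array left out. Some listed genes were not analysed here, and 1 list is not reported here.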

Additional observations from a re-analysis of the deposited data

Results flagged for a closer look

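Among the genes named by the rule for named genes, those are given whose values at 8 h and at 4 d differed from each other in the limma fit (adjusted p under 0.05; 7.8% of all genes did). The 8 h arrays that chose the rises and the lower values, such as Rgs4 and Cyp11a1, enter this test. Rgs4 was under the minimum on both 8 h arrays (10.1 and 13.9). The cause of these differences was not tested.

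Of the genes high at 8 h, the log2 difference of 4 d minus 8 h was -2.71 for Cxcl1 (adjusted p = 0.00824), -2.27 for Egr1 (adjusted p = 0.00112), -2.24 for Fos (adjusted p = 0.0072), -1.95 for Il1a (adjusted p = 0.00177), -1.02 for Ier3 (adjusted p = 0.0382) and -0.87 for Ppp1r15a (adjusted p = 0.0315). For Dusp5, past the 8 h threshold only with the run as a block, it was -2.0, and for Nr0b1 -1.25. In all 8 of these the 3 arrays at 4 d lay below both 8 h arrays. The same difference on the same arrays chose them, so this adds no support.

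Among the named germ cell genes the differences were -1.25 for Cabs1, -1.22 for Fscn3, -0.69 for Capza3 and -0.62 for Crem.

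Other named genes were higher at 4 d than at 8 h. The differences were 4.36 for Testin, 3.58 for Hpx, 2.53 for Rgs4, 2.36 for Lcn2, a secreted siderophore-binding protein, and 1.32 for the brighter probe set of Ctsl. Among cytokine receptor and interferon-induced genes they were 1.53 for Tnfrsf1a, 1.15 for Tnfrsf12a, 1.52 for Gbp2 and 0.98 for Irf1. Among steroid and sterol genes they were 1.29 for Cyp11a1, 1.16 for Dhcr7 and 1.10 for Lss. Further differences were 1.65 for the collagen gene Col3a1, 1.43 for Id2, 1.12 for Cldn5, 0.93 for Csf1r and 0.55 for Alas2.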

How the results depend on the processing

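The count of 15 probe sets higher at 8 h was 7 with the 5 arrays alone, 36 with a replicate block, 54 with the run as a block and 40 with runs 1 and 3 alone and the run as a block; leaving out 1 array gave 0 to 11. Because 8 h replicate 2 shares its run with control 3 and not control 2, the replicate block is given only here; all 15 were kept under it. The count of 0 lower was 1 without the trend, 2 with the replicate block, 3 with the run as a block, 4 with runs 1 and 3 and the run as a block, and 0 whenever 1 array was left out. The other scalings, constants and filters gave 11 to 19 higher and 0 lower. Of the 9 genes, Fos, Dipk2a, Ppp1r15a and Itga6 no longer passed with the 5 arrays alone (adjusted p = 0.101, 0.0601, 0.0908 and 0.0666), where fewer arrays estimate the spread, and all 9 were lost when either 8 h array was left out. Ppp1r15a and Itga6 were lost whichever of the 5 arrays was left out, Fos was lost without control 1 or 2, and Dipk2a without control 2. Of 1786 gene values under 16 alternatives, 16 changed sign, none of them of a gene past the threshold. With 1 array left out in turn, or where another setting is named, they were Sycp1 -0.070 with a replicate block and -0.15 to 0.76, Cabs1 -0.013 to 0.38, Akap3 -0.22 to 0.026, Fscn3 0.024 with a replicate block and -0.28 to 0.025, Myh11 -0.37 to 0.0058, C1qb -0.015 to 1.53, Hbb -0.081 to 0.37, Alas2 -0.0016 with median scaling and -0.056 to 0.078, Cdkn1a -0.0091 to 0.97 and Tbp -0.15 to 0.49. The cause was not tested. Of the 34 list medians 16 kept their sign throughout, those of the cytokine (0.45 to 0.86), early transcription factor (0.34 to 0.66), early feedback (0.37 to 0.55) and NF-kappaB (0.20 to 0.43) lists among them; the Leydig, spermatogonium and both spermatid medians did not.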

Other observations

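Stress and metabolic genes that the comparisons above leave out were mostly near their untreated level at 8 h. Hmox1, the haem-degrading enzyme heme oxygenase 1, had signals of 358.5, 396.0 and 234.6 untreated and of 766.2 and 528.9 at 8 h; each treated array was higher than the control of its run by log2 1.06 and 1.12, and it passed with the run as a block only (adjusted p = 0.0341). It was the single gene of 21 xenobiotic and oxidative stress genes to do so (list median 0.08). Mcl1, a survival factor of the Bcl-2 family, had 497.1, 373.9 and 484.5 against 765.4 and 1201 (log2 0.95 with the block, adjusted p = 0.0341), 1 of 14 apoptosis and p53 genes. A second Mcl1 probe set differed by 0.56 with the block and passed in neither fit. Bnip3, a mitochondrial protein induced by hypoxia, had 209.9, 226.0 and 236.8 against 369.0 and 696.2 (1.11 with the block, adjusted p = 0.0313), 1 of 17 hypoxia and glucose genes. In the signals printed for Hmox1, Mcl1 and Bnip3, both treated arrays lay above all controls, as in 7.86% of all genes. Without the block 0 genes of the 3 lists passed.

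Of 16 heat shock genes (median -0.03), 16 endoplasmic reticulum stress genes (0.10), 15 clock genes (-0.07), 10 glucocorticoid genes (0.01), 17 TGF-beta family genes (0.13), 23 cell cycle genes (0.00), 16 matrix genes (-0.04) and 7 housekeeping genes (0.09), 0 passed in either fit. The clock gene with the largest difference was Bhlhe40, which had signals of 24.1, 44.8 and 16.2 untreated and of 97.3 and 78.5 at 8 h (log2 1.27, adjusted p = 0.843). Atf4, the transcription factor of the amino acid response, had 460.9, 468.4 and 512.5 against 607.0 and 757.5 (0.48, adjusted p = 0.866). Per2 differed by -0.29 and Tsc22d3, a glucocorticoid target, by -0.22. The labels used here give no hour of day for any group.

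For 3 early transcription factor genes a dimmer probe set than the one that stood for the gene passed with the run as a block, and they are named after their values were seen. That of Nr4a3 had 3.50, 7.90 and 26.3 untreated and 144.9 and 141.0 at 8 h, while the one that stood for the gene had 86.8, 46.4 and 50.3 against 76.4 and 6.40. That of Cebpd had 22.8, 5.90 and 4.80 against 107.2 and 108.0, and that of Jund 5.40, 34.8 and 5.60 against 111.2 and 92.5. The one that stood for Cebpd had 58.4, 55.2 and 32.3 against 126.1 and 247.6 (log2 1.61) and passed in neither fit. The dimmer probe sets of all 3 genes reached the minimum on no control, so the filter kept them only through the 8 h arrays. This fixed their lack of overlap. The choice of probe set therefore sets the count of members called in that list. Of the 4 unnamed probe sets past the threshold without a block, the largest went from 15.8, 14.5 and 10 to 163.2 and 180.9 (log2 2.68, adjusted p = 0.0359), with 5.5, 9.7 and 23.3 at 4 d. This probe set too reached the minimum on no control, so the filter fixed its lack of overlap.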
